A study of Mus musculus with 6 samples.

Results

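The interleukin-1 family and inflammasome genes were described in cultured myoepithelial cells of the mouse lacrimal gland, from 10 listed symbols: Il1a, Il1b, Il1rn, Il1r1, Il1rap, Il1rl1, Il18, Il33, Nlrp3 and Casp1. They were chosen as known cytokines of lacrimal gland inflammation together with their receptors and the machinery that releases them. A member was taken where a probe set carried exactly 1 gene symbol equal to a listed one, and the probe set with the highest mean was kept. This gave 9 of the 10 genes among 22180 in all, and Il1rl1, the IL-33 receptor, was not analysed here. Total RNA was hybridised to 6 Affymetrix Mouse Gene 2.0 ST arrays, 3 from TSP1 null and 3 from wild-type C57BL/6J mice, all female. TSP1 (thrombospondin-1, gene Thbs1) is a glycoprotein that cells release into the matrix. The series takes the null mouse for dry eye disease and asks how expression differs from health. Cells of the exorbital gland were released with collagenase and kept for about 2 to 3 weeks in medium with serum, without any treatment. The sources used here do not give the background strain of the null mice, their age, or whether a culture held cells of more than 1 animal. Replicates are labelled biological without further detail, so every p-value below rests on the spread among 3 arrays per group, which may be technical.

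Interleukin-1 alpha and beta, encoded by Il1a and Il1b, signal through the receptor Il1r1 and its shared partner Il1rap, and this starts MyD88-dependent NF-kappaB activity in epithelial and stromal cells. The secreted antagonist Il1rn occupies Il1r1 without signalling. IL-1 beta and IL-18 are made as inactive precursors that caspase-1 (Casp1) cuts after a sensor such as Nlrp3 has assembled an inflammasome, whereas IL-1 alpha and the nuclear alarmin IL-33 are active when damaged cells release them. In the lacrimal gland IL-1 is known to inhibit nerve-evoked secretion during inflammation.

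Values are log2 signals, on which a step of 1 is a doubling, and differences are TSP1 null minus wild type. The array medians lay between 5.25 and 5.32, and signals near or below that level are compressed by background. Thbs1 itself read 12.73, 13.03 and 13 on the null arrays and 13.51, 13.75 and 13.54 on the wild-type arrays (difference -0.68, SE 0.13, limma adjusted p = 0.25). It was still bright on the null arrays, and where its probes lie relative to the disrupted part is not given, so it is a weak check of the labels. The contractile markers Acta2 (13.85 to 14.01 over the 6 arrays) and Myl9 were bright, while the basal epithelial marker Trp63 (4.47 to 4.93) was below the array median, and Krt5 was not analysed here. The basal keratin Krt14 read 6.35, 6.21 and 5.78 on the null arrays and 4.93, 5.23 and 5.52 on the wild-type arrays (difference 0.89, SE 0.20, limma adjusted p = 0.29), and Krt17 differed by 0.82 (SE 0.23), both without overlap. Macrophage markers had a list mean above the array median on every array, though Cd163 was dim (4.02 to 4.42). All 20 of 20 had lower means in the null group, and the mean of the list was 8.99, 9.78 and 7.37 on the null arrays and 9.58, 10.30 and 10.43 on the wild-type arrays. Fibroblast markers (13 genes) had means of 9.98, 10.58 and 10.01 on the null arrays and 10.89, 9.80 and 9.97 on the wild-type arrays. The third null array thus had the lowest macrophage mean, and null array 2 and wild-type array 1 (by replicate number) the highest fibroblast means. The fibroblast list was split, with 6 positive and 7 negative differences. Lum, Dpt, Cd34 and Pi16 were highest on those 2 arrays. Col1a1 and Col1a2 were highest on the first null array (13.53 and 13.25). They and Col3a1 were higher in the null group without overlap. In RNA from a whole culture, fewer cells of a type and less RNA per cell cannot be told apart.

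Among the 9 measured members Casp1 and Il1rn had the clearest lower signals in the TSP1 null cultures. Casp1 was 2.23-fold lower (difference -1.16, SE 0.23) and Il1rn 1.83-fold lower (difference -0.88, SE 0.31). Il33 did not follow genotype. It was high on 1 array of each group and low on the other 4. Il1r1 and Il1rap varied together from array to array, and Il18 varied least of the members. Over all genes 0 passed a limma adjusted p of 0.05, so 0 members did (0%). At an unadjusted p under 0.05 there were 2 of 9 members, both lower, where 10.6% of all genes reached it and 4.27% did so with a lower signal. The groups did not overlap for 3 of 9 members (Il1rn, Nlrp3 and Casp1), all lower in the null group, against 15.8% of all genes in either direction, 5.75% lower and 10.1% higher. The median difference of the members was -0.11, beside 0.022 for all genes.

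**Figure D1:**
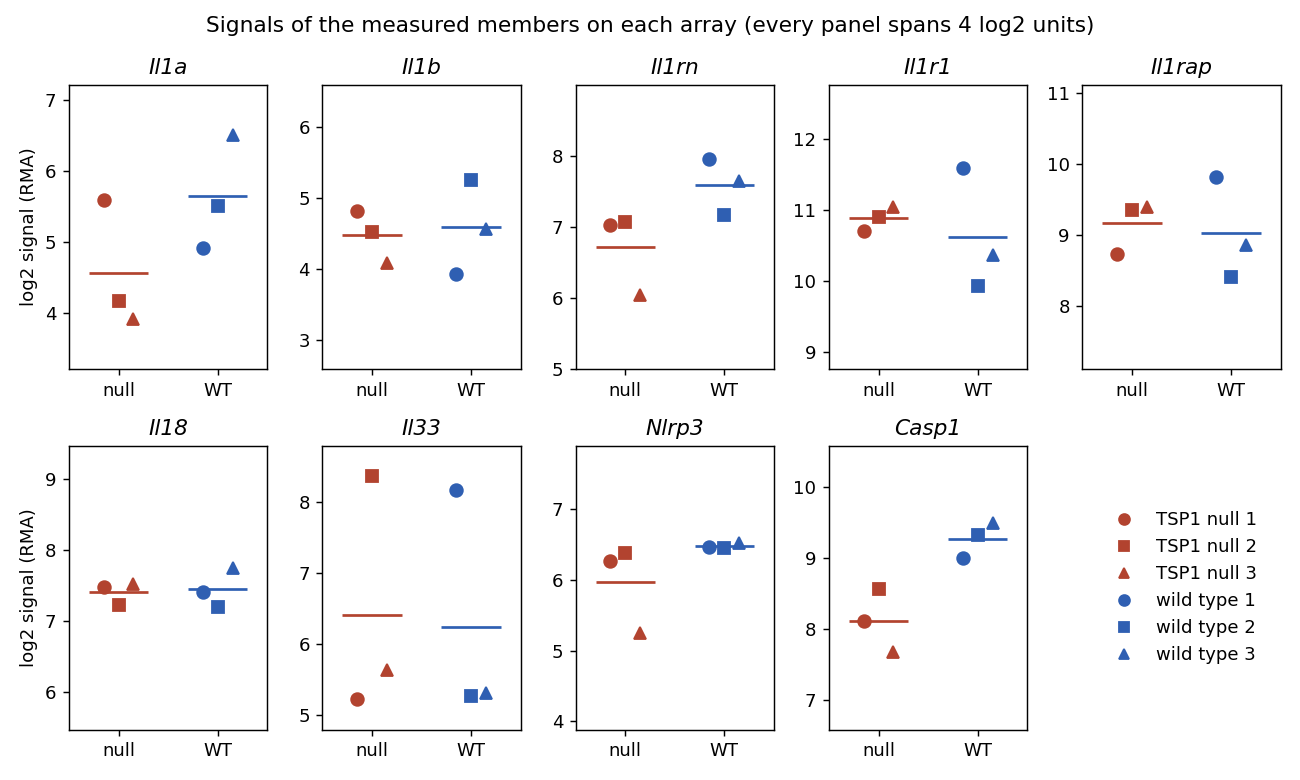
Log2 signals of the 9 measured members on the 3 TSP1 null arrays (red) and the 3 wild-type arrays (blue), with the marker shape giving the replicate number and a line at each group mean. The groups do not overlap for Casp1, Il1rn and Nlrp3, narrowly so for Il1rn and Nlrp3, and 15.8% of all genes do not overlap. Il33 is high on 2 arrays only, the second null (8.36) and first wild-type (8.16).

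The IL-1 ligand genes were dim. Il1a read 5.59, 4.17 and 3.91 on the null arrays and 4.91, 5.50 and 6.51 on the wild-type arrays. The highest value was on the third wild-type and the lowest on the third null array, but the first null array lay above 2 wild-type arrays and the groups overlapped. The difference was -1.08 (SE 0.52, 95% interval -2.28 to 0.12, limma adjusted p = 0.517). It was -1.60 without the first null array, -0.65 without the third wild-type array, and -0.53 (SE 0.66) with the macrophage marker mean as a covariate. Il1b read 4.82, 4.53 and 4.09 against 3.93, 5.26 and 4.57, all at or below the array median. Both its highest and its lowest signal were on wild-type arrays, and the difference of -0.11 (SE 0.33, interval -0.88 to 0.66) turned positive without the second wild-type array (0.23).

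Il1a and Il1b lie next to each other among the protein-coding genes of chromosome 2, and their promoters are shown because these neighbours had different orders over the arrays. Each sequence is the 250 bases before the start on the gene's strand (RefSeq, GRCm38.p6), and all 10 listed genes matched that table. Capitals mark matches, on either strand, to TATAAA (the TATA box), TGANTCA (the AP-1 element), GAGGAA (a core bound by ETS factors such as PU.1) or the kappaB consensus. Of all 32851 promoter windows of this length 12.4% hold TATAAA, 6.75% TGANTCA, 23.3% GAGGAA and 7.25% the kappaB consensus.
Il1a (chr2:129309973-129310222, minus strand): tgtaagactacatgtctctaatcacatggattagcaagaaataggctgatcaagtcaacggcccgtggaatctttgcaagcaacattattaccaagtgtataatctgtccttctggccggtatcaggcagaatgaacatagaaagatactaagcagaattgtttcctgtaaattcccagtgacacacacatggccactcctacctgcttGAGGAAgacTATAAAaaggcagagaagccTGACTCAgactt
Il1b (chr2:129371140-129371389, minus strand): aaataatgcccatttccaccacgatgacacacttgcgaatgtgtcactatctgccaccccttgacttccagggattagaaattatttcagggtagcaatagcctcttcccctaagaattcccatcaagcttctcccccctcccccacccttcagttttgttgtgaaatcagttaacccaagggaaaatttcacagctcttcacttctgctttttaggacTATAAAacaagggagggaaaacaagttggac
Both windows hold a TATAAA, starting 32 bases before the start in Il1a and 31 in Il1b. Il1a alone of the pair has a GAGGAA and a TGANTCA in this window. Matches are letters in a window and say nothing of binding.

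The gene on the other side of Il1b, F830045P16Rik, had a larger difference than either cytokine. Its signals were 4.11, 4.04 and 4.43 on the null arrays and 5.56, 5.68 and 5.42 on the wild-type arrays, without overlap. The difference was -1.36 (SE 0.14), and no gene had a limma adjusted p below its 0.161, a value that other genes may share. The null signals of F830045P16Rik lay below the array median, where signals are compressed. Ckap2l, on the far side of Il1a, differed by -0.55 (SE 0.47) with overlapping groups. Thbs1 is on the same chromosome, with 174 protein-coding genes between it and Il1a and 918 between it and Il1rn. Il1rn lies apart from Il1a and Il1b.

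Il18, a cytokine that drives interferon-gamma production, read 7.48, 7.23 and 7.53 on the null arrays and 7.42, 7.20 and 7.75 on the wild-type arrays. Every null value fell inside the wild-type range, and the difference was -0.05 (SE 0.16, interval -0.43 to 0.34). Its sign turned when the second null array (0.04) or the third wild-type array (0.10) was left out. Its SD over the 6 arrays, 0.20, was the smallest of the members, beside a median of 0.18 for all genes.

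Il33, the alarmin that signals through Il1rl1 and Il1rap, read 5.22, 8.36 and 5.63 on the null arrays and 8.16, 5.26 and 5.31 on the wild-type arrays. Null array 2 and wild-type array 1 stood far above the other 4, which lay near the array median. The SD over the 6 arrays was 1.51, and only 17 of the 22180 genes, Il33 included, reached that SD. The group means were 6.40 ± 1.71 and 6.24 ± 1.66 (SD, n = 3), and the difference was 0.16 with an SE of 1.00 and an interval of -2.17 to 2.49. Leaving out the second null array gave -0.82, and leaving out the first wild-type array gave 1.12. These are the arrays with the highest fibroblast marker means. When the fit was given that mean as a covariate (chosen after the values were known), the difference was 0.26 and its SE 0.33. Without both arrays it was 0.14 (SE 0.17). The promoter is shown for this gene because no other member varied as much.
Il33 (chr19:29945540-29945789, plus strand, the downstream of 2 starts): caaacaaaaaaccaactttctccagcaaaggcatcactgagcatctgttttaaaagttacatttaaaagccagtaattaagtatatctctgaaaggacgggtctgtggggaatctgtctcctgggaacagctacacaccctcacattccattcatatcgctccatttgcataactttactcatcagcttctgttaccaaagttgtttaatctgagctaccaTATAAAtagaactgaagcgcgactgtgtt
A TATAAA starts 29 bases before this start, and no other of the searched motifs is in the window.

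Over the 6 arrays the genes most like Il33, by the root mean square difference of signals centred on each gene's mean, were Scg2 (0.47 log2 units), C4b (0.49) and Col28a1 (0.50). Scg2, which encodes the secretory granule protein secretogranin II, read 6.96, 10.93 and 6.93 on the null and 10.21, 7.85 and 7.76 on the wild-type arrays. C4b, a complement component, read 6.05, 8.0 and 5.91 against 7.74, 5.75 and 6.01. Each shared the pair of high arrays with Il33. For Il1a the nearest genes were Atf7ip2 (0.44), Snora7a (0.45) and Rhoh (0.46), all farther from it than the 3 listed for Casp1 below are from Casp1.

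The antagonist Il1rn read 7.02, 7.07 and 6.04 on the null arrays and 7.95, 7.16 and 7.64 on the wild-type arrays. All 3 null arrays lay below all 3 wild-type arrays, but the second null and the second wild-type array were nearly level. The group means were 6.71 ± 0.58 and 7.59 ± 0.39 (SD, n = 3), with a difference of -0.88 (SE 0.31, interval -1.59 to -0.16, limma unadjusted p = 0.0231, adjusted p = 0.401). The third null array, lowest for Il1rn, was also lowest for macrophage markers. Without it the difference was -0.54 (SE 0.23), and with the macrophage marker mean as a covariate it was -0.42 (SE 0.36). Il18bp, the secreted inhibitor of IL-18, was likewise lower, at 6.06, 6.25 and 6.24 against 6.54, 6.41 and 6.66 (difference -0.35, SE 0.12, adjusted p = 0.39).

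The receptor Il1r1 read 10.71, 10.91 and 11.05 on the null arrays and 11.60, 9.93 and 10.37 on the wild-type arrays. The wild-type arrays held both the highest and the 2 lowest values, and the null arrays fell between them. The difference was 0.25 (SE 0.38, interval -0.63 to 1.14). Without the first wild-type array it was 0.74 (SE 0.18, limma unadjusted p = 0.00419, adjusted p = 0.19), and without the second wild-type array -0.10. Il1rap, the partner chain of the IL-1, IL-33 and IL-36 receptors, read 8.74, 9.36 and 9.40 against 9.83, 8.41 and 8.87. The first wild-type array was again the highest and the second the lowest, with the null arrays and the third wild-type array mixed between them. The difference was 0.13 (SE 0.35), and it was -0.18 without the second wild-type array. Il1rap has 3 probe sets, and the other two were dim. After centring, Il1r1 and Il1rap differed by a root mean square of only 0.16 log2 units over the arrays, the smallest of any pair of members. Both also lay near the fibroblast marker mean (0.30 and 0.25) and far from the macrophage marker mean (1.35 and 1.28). By this measure only Il1a and Casp1 (0.49 against 0.75) lay nearer the macrophage mean. The other members lay nearer the fibroblast mean, among them Il1rn (0.54 against 0.66) and Nlrp3 (0.51 against 0.63). The measure depends on the size of the variation as well as its order. After centring, the macrophage mean ran from -2.04 to 1.02 and the fibroblast mean only from -0.41 to 0.69. A gene that varies little thus tends to lie nearer the fibroblast mean whatever its order. Il1rn and Nlrp3 were both lowest on the third null array, as the macrophage mean was. Il33, which varied most, was 1.01 from the fibroblast mean.

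Of 13 listed family genes outside the members 9 were measured, and 0 passed the adjusted threshold. At an unadjusted p under 0.05 there was 1, Il18bp, or 11.1%, about the share of all genes. Il1rl2, the IL-36 receptor, read 8.50, 8.28 and 9.07 on the null and 8.89, 7.62 and 8.12 on the wild-type arrays (difference 0.41, SE 0.33). Il1r2, the decoy receptor that binds IL-1 without signalling, read 4.65, 4.26 and 4.61 against 6.57, 4.34 and 4.50. Only the first wild-type array stood out, and the difference of -0.63 (SE 0.54) rests on it. Il1rapl1, an accessory-protein-like gene of neurons, was dim (3.43 to 3.75) and differed by 0.14. The neighbours of this receptor cluster on chromosome 1, Map4k4 and Slc9a4, differed by 0.22 (SE 0.10) and 0.02 (SE 0.12).

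The balance of agonist and inhibitor was compared as the difference of 2 log2 signals within each array, which shows unequal change of 2 probe sets and not a ratio of amounts. Il1r2 on 5 of the 6 arrays, Il1b on all 6 and Il1a on 3 read below the array median, where signals are compressed. The comparisons with these genes thus use probe sets near background on those arrays. The difference Il1r1 minus Il1r2 was 6.06, 6.64 and 6.44 on the null arrays and 5.03, 5.59 and 5.87 on the wild-type arrays, without overlap. It was 0.88 higher in the null group (SE 0.30, exact two-sided permutation p = 0.1, adjusted p = 0.4 over 4 comparisons), and 0.1 is the smallest p that 3 against 3 arrays can give. Il1b minus Il1rn was 0.77 higher (SE 0.63, exact permutation p = 0.4), and it ran from 0.26 without the first wild-type array to 1.32 without the second. Il18 minus Il18bp was 0.31 higher (SE 0.15, exact permutation p = 0.2). Il1a minus Il1rn differed by -0.21 (SE 0.71, exact permutation p = 0.8), and its sign turned without the second null array (0.17) or the third wild-type array (0.20).

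Nlrp3, the sensor of the best known inflammasome, read 6.26, 6.38 and 5.25 on the null arrays and 6.46, 6.44 and 6.52 on the wild-type arrays. The wild-type arrays were nearly equal and the null arrays all lay lower, but only the third null array lay clearly lower. The difference was -0.51 (SE 0.28, interval -1.15 to 0.13, limma adjusted p = 0.563), -0.15 without the third null array, and 0.09 (SE 0.20) with the macrophage marker mean as a covariate.

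Casp1, the protease that matures IL-1 beta and IL-18, read 8.11, 8.56 and 7.68 on the null arrays and 9.0, 9.33 and 9.49 on the wild-type arrays. The null arrays all lay below the wild-type arrays. The group means were 8.12 ± 0.44 and 9.27 ± 0.25 (SD, n = 3), and the difference was -1.16 (SE 0.23, interval -1.70 to -0.61, limma unadjusted p = 0.00126, adjusted p = 0.25). By unadjusted p it ranked 111 of 22180 genes. Over the 6 fits that each left out 1 array the difference ran from -1.38 to -0.94. With null array 2 and wild-type array 1 both left out, a choice made after the data were seen, it was -1.52 with an adjusted p of 0.0256, in a fit of 2 against 2 arrays that called 365 genes.

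Casp1 moved with the macrophage markers, being lowest on the third null array, where they were lowest, and highest on the third wild-type array, where they were highest. With their mean as a covariate the difference was -0.64 (SE 0.16, limma unadjusted p = 0.00586, adjusted p = 0.796), and it was the 1 member of 9 under an unadjusted p of 0.05, which 6.18% of all genes reached, 2.57% lower and 3.61% higher in the null group. The genes most like Casp1 over the arrays were Gab3 (root mean square difference 0.11), Cxcl14 (0.11) and Ikzf1 (0.14). Gab3 is an adaptor of growth factor signalling, Cxcl14 a chemokine and Ikzf1 a transcription factor of blood cells. Gab3 read 6.12, 6.60 and 5.88 against 7.19, 7.24 and 7.45, and Cxcl14 7.14, 7.65 and 6.91 against 8.10, 8.70 and 8.56. The promoter of Casp1 is shown as that of the member with the clearest difference.
Casp1 (chr9:5298267-5298516, plus strand): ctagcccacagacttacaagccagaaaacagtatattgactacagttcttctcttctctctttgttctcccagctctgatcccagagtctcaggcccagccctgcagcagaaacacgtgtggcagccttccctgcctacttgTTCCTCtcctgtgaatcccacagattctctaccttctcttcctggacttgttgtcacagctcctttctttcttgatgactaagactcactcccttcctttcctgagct
The single match is to GAGGAA on the opposite strand, starting 108 bases before the start, and the window holds no TATAAA.

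**Figure D2:**
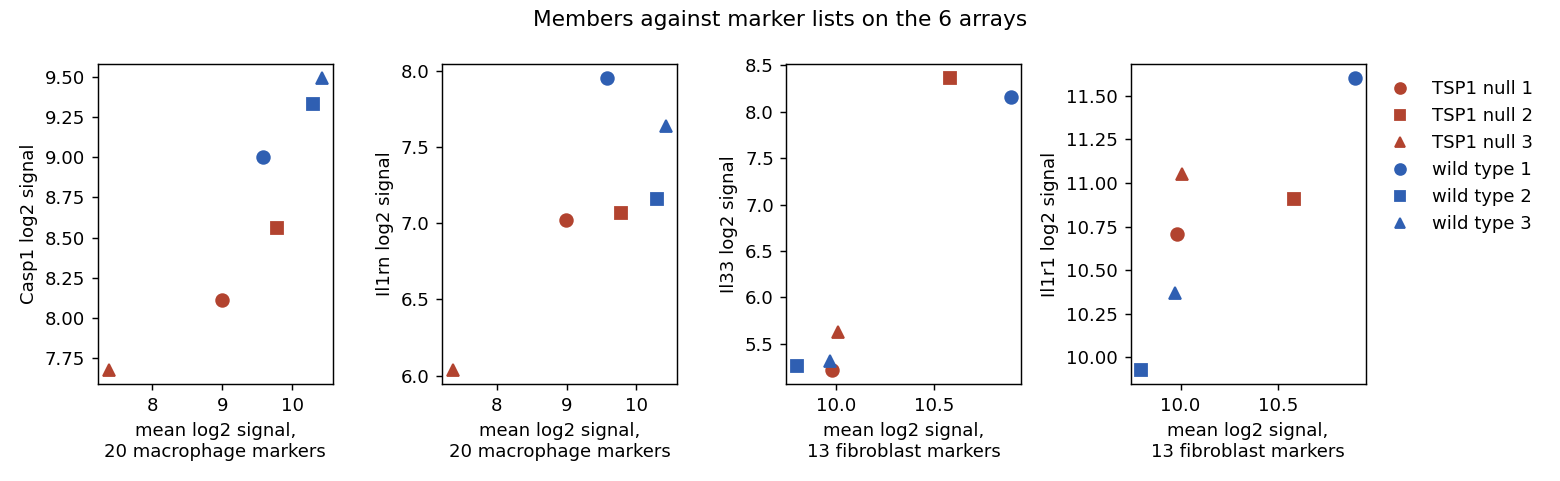
Log2 signals of Casp1 and Il1rn against the mean of 20 macrophage markers, and of Il33 and Il1r1 against the mean of 13 fibroblast markers, with 1 point per array (red TSP1 null, blue wild type). Casp1 is lowest (7.68) on the array with the lowest macrophage mean (7.37) and highest (9.49) on that with the highest (10.43), and the 2 arrays with high Il33 have the highest fibroblast means (10.58 and 10.89).

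**Figure D3:**
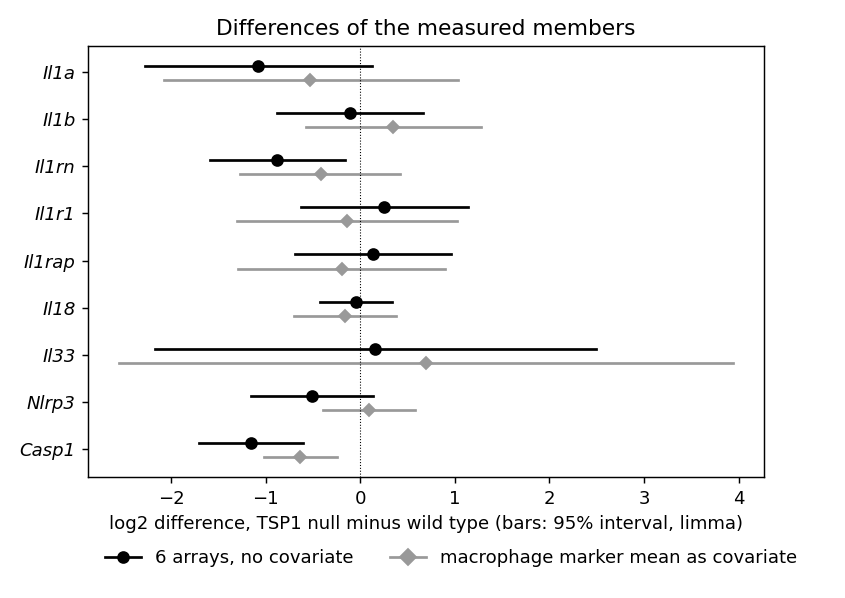
Differences of the 9 members, TSP1 null minus wild type, in log2 units with 95% intervals from limma, without a covariate (black) and with the macrophage marker mean as a covariate (grey). Without the covariate the intervals of Casp1 (-1.70 to -0.61) and Il1rn (-1.59 to -0.16) lie below 0, and with it only that of Casp1 does.

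Other inflammasome genes had differences in both directions, more of them negative. Of 22 listed sensors, adaptors and effectors 20 were measured, 13 with a negative and 7 with a positive difference, and their median was -0.28. None (0) passed the adjusted threshold. At an unadjusted p under 0.05 there were 6 lower and 2 higher, 40% of the list beside 10.6% of all genes. The macrophage marker mean, lower on average in the null group, moved with several of them. Pycard, which encodes the adaptor ASC that links sensors to caspase-1, read 6.94, 7.16 and 6.95 on the null arrays and 7.71, 7.66 and 7.83 on the wild-type arrays. It was 1.64-fold lower (difference -0.72, SE 0.11, limma adjusted p = 0.194), and its groups were far apart compared with the spread within each. Aim2, a sensor of cytosolic DNA, read 5.03, 5.66 and 4.57 against 6.07, 6.38 and 6.91 (difference -1.36, SE 0.30). Nlrp1b, the sensor of anthrax lethal factor, read 4.51, 4.54 and 4.77 against 5.49, 5.06 and 5.25 (difference -0.66, SE 0.15). The groups did not overlap for either sensor.

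Txnip, a thioredoxin inhibitor that can bind Nlrp3, went the other way. It read 12.29, 11.78 and 12.31 on the null arrays and 11.29, 11.20 and 11.05 on the wild-type arrays, a 1.93-fold higher signal (difference 0.95, SE 0.17, limma adjusted p = 0.213). Txnip was among the 34 genes that passed the adjusted threshold without the second null array, and no member was.

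Casp8, an apoptotic caspase that can also cut IL-1 beta, was the brightest of the list and read 11.43, 11.43 and 11.65 against 12.08, 12.02 and 11.94 (difference -0.51, SE 0.11). The remaining 3 genes under that p are named after their values were seen. Naip6 and P2rx7, a NAIP family gene and an ATP-gated channel that triggers Nlrp3, differed by -1.43 (SE 0.38) and -0.85 (SE 0.27). Naip6 has near-identical relatives, so its probes may read them too. Panx1, a channel that releases ATP, differed by 0.37 (SE 0.15).

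With the macrophage marker mean as a covariate, where 6.18% of all genes had an unadjusted p under 0.05, 2.57% lower and 3.61% higher, 4 of the 20 measured inflammasome genes were lower and 2 higher at that p. The 4 were among the 6 lower without the covariate: Pycard (-0.62), the dim Nlrp1b (-0.86), Aim2 (-0.71) and Casp8 (-0.65). Naip6 (-0.57, unadjusted p = 0.0556) and P2rx7 (-0.23, unadjusted p = 0.203) did not, and Txnip (0.67) and Panx1 (0.57) stayed positive. The part of these cells in the differences was not tested further. Without the third null array 6 genes of the list were lower and 1 higher at an unadjusted p under 0.05, where 6.7% of all genes passed. With null array 2 and wild-type array 1 left out, chosen after the data were seen, 11 were lower and 2 higher, and the share of all genes was 15.8%. Gsdmd, the pore-forming target of inflammatory caspases, and Casp4, the sensor of cytosolic lipopolysaccharide, differed by 0.25 (SE 0.16) and -0.10 (SE 0.23) with overlapping groups. Both were singled out after their values were seen.

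**Figure D4:**
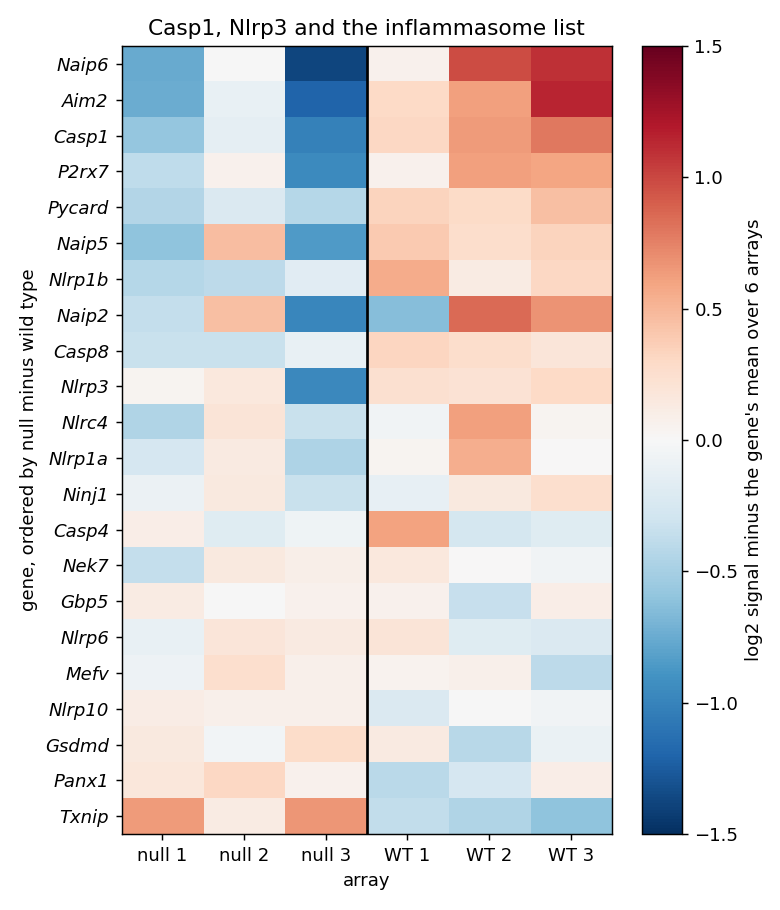
Log2 signals of Casp1, Nlrp3 and the 20 measured genes of the inflammasome list on each array, centred on the gene's mean over the 6 arrays (red above, blue below) and ordered by the difference between groups. Casp1, Pycard, Aim2, Nlrp1b and Casp8 are below their mean on all 3 null arrays, and Txnip is above it on all 3.

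Genes that carry the signal from the receptors had small differences. Of 17 measured of 19 listed, 0 had an unadjusted p under 0.05, where 10.6% of all genes did. The differences ran from -0.27 to 0.29 with a median of 0.03. The smallest unadjusted p values belonged to the ubiquitin ligase Peli1 (difference -0.22, SE 0.11), the ubiquitin-conjugating enzyme Ube2n (-0.27, SE 0.14), the IKK subunit Ikbkg (0.29, SE 0.19) and the kinase Map3k8 (0.29, SE 0.20). The brightest, the kinase adaptor Tab2, differed by 0.03. Myd88, the adaptor of the IL-1 receptors, was highest on the first wild-type array (10.48), as Il1r1 and Il1rap were, and read 9.36 to 9.87 on the other 5.

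Genes known to be induced by IL-1 in stromal cells had more positive than negative differences, 21 against 8 of 29 measured, with a median of 0.16. At an unadjusted p under 0.05 there were 5 (17.2%), all higher in the null group, where 6.28% of all genes were, and 0 passed the adjusted threshold. Il6, an acute-phase cytokine, read 9.22, 9.42 and 9.74 on the null arrays and 8.86, 8.77 and 8.88 on the wild-type arrays (difference 0.62, SE 0.15, limma adjusted p = 0.298). Cxcl1, a neutrophil chemokine, read 7.52, 6.78 and 7.57 against 6.76, 6.16 and 6.03 (difference 0.98, SE 0.26). The RNase gene Zc3h12a and the chemokine gene Ccl7 differed by 0.64 (SE 0.20) and 0.42 (SE 0.14). The null arrays lay above the wild-type arrays for each of these 4 genes, and below them for 1 other, Sod2. Groups without overlap thus made up 17.2% of the list, near the 15.8% of all genes (10.1% higher, 5.75% lower). Haptoglobin, Hp, had the largest difference, 1.58 (SE 0.61), but overlapped, with 7.18 on the first wild-type array against 6.96 on the third null array. Ptgs2, the inducible cyclooxygenase, was bright (10.20 to 11.98) and differed by 0.23 (SE 0.42), and the adhesion molecule Vcam1 by -0.02 (SE 0.16). With the macrophage marker mean as a covariate 0 of the 29 had an unadjusted p under 0.05, where 6.18% of all genes did. The differences of Cxcl1 (0.49), Il6 (0.42) and Zc3h12a (0.44) were then smaller, that of Ccl7 (0.39) was about the same and that of Hp (1.87) larger, with larger SEs for Ccl7 (0.20) and Hp (0.85). Without the first wild-type array 8 of the 29 were higher, where 12.3% of all genes passed in either direction.

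**Figure D5:**
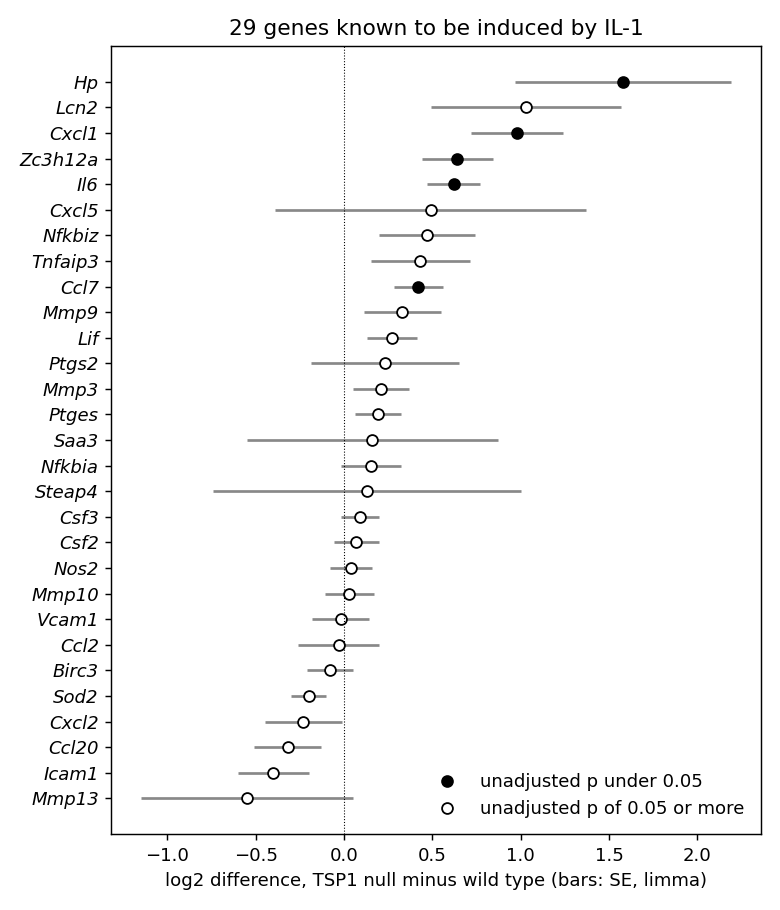
Differences of 29 genes known to be induced by IL-1, TSP1 null minus wild type, in log2 units with limma's SE, filled where the unadjusted p is under 0.05. The 5 filled genes, Hp, Cxcl1, Zc3h12a, Il6 and Ccl7, are all positive (0.42 to 1.58).

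Proteases other than caspase-1 that can process IL-1 family cytokines gave 0 of 11 measured genes at an unadjusted p under 0.05. Of all genes 10.6% reached that p. Mmp2, a gelatinase, had the largest difference (0.39, SE 0.20), and Capn2, a calpain, 0.17 (SE 0.11), both bright. Mmp9 differed by 0.33 (SE 0.22), and the neutrophil protease Ctsg was dim (3.61 to 3.99).

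Markers of other cells known to make or sense these cytokines were examined as lists. Of the macrophage markers 14 of 20 had an unadjusted p under 0.05, all lower, where 4.27% of all genes did with a lower signal. None (0) had an adjusted one. The groups did not overlap for 4 of the 20, all lower, beside 5.75% of all genes. Lyz2 and Cd68 were the brightest. The part these cells have in the differences of Il1rn, Nlrp3 and Casp1 was not tested beyond the covariate and the arrays left out. Mast cell markers (10 genes) had list means of 3.66 to 3.74 on all arrays, the brightest being Tpsb2 and Kit, and neutrophil markers (10) 4.26 to 4.37, the brightest being Csf3r and Cxcr2. Both lists lay below the array median everywhere. Lymphocyte markers (11 measured) had means of 4.48 to 4.92, led by Il7r and Nkg7, and dendritic cell markers (7 measured) of 5.62 to 5.90, led by Cd209a and Itgax. Endothelial markers (10), led by Tek and Flt1, ranged from 5.15 to 5.78, acinar and ductal markers (12 measured), led by Krt8 and Krt19, from 5.40 to 5.71, and adipocyte markers (6 measured), led by Plin4 and Plin1, from 4.96 to 5.67. The fibroblast list was led by Postn and Col1a1. The mean of the myoepithelial and basal list (8.51 to 8.99) was carried by contractile genes such as Acta2 and Myl9, while Trp63 and Lamb3 (4.99 to 5.44) were dim.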

How the data were processed

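For each array the authors deposited a log2 value of every probe set, 41345 in all. Partek and RMA are named, per the submitters' processing notes, without versions or settings. That the scale is log2 follows from the range of the values. RMA equalises the arrays, so a change of most genes together would not show, and it compresses dim signals. Gene names came from GEO's annotation of the platform. For genes with several probe sets the one with the highest mean was kept, which left 22180 genes, with no filter on dim signals.

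Groups were taken from the sample titles and compared with limma 3.58.1 in R 4.3.3 (lmFit, eBayes, two-sided, no covariate), p-values adjusted by Benjamini-Hochberg over the 22180 genes and called at 0.05. Each SE is limma's, and intervals are 95%. The 4 within-array comparisons used exact permutation tests, and Il33 minus Il1rl1 was not run because Il1rl1 was not analysed here. The script was tested on simulated data. The precision is limited by the number of arrays. The replicate number as a block, other normalizations and filters, marker means as covariates and each array left out were alternatives.

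The members and the gene lists (5 of the pathway, 10 of cell types) were chosen with earlier results of these data known. Named genes are the members, Thbs1, per pathway list the 4 genes of smallest p and the brightest, per cell type list the 2 brightest, the 3 genes most like each of the 3 most variable members (provisional names such as Rik and Gm left out), the neighbours of the Il1a and Il1r1 clusters, and genes the text says were singled out. Other markers and further induced genes named in the text were also singled out. Promoters are from RefSeq and not from the build of the probe sets, which the sources used here do not give. Figures were drawn with matplotlib 3.10.9.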

Additional observations from a re-analysis of the deposited data

How the results depend on the processing

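Of the 9 members, Il1a, Il1rn and Casp1 kept their direction under all alternatives run. Some of these could not change it. An ordinary linear model, another prior for the spread and the replicate block alter only the SE and p. Averaging probe sets leaves a gene with 1 probe set as it was. Only Casp1 kept an unadjusted p under 0.05 in all 17, with differences of -1.52 to -0.64 and adjusted p values of 0.0256 to 0.796. Leaving out dim probe sets removed Il1a and Il1b. Members at an unadjusted p under 0.05 numbered 1 with an ordinary linear model, where 8.58% of all genes passed. With the macrophage mean as a covariate there was 1, beside 6.18% of all genes. When an array was left out there were 1 to 3, beside 6.7% to 12.3% of all genes. With that covariate the differences of Il1b (0.35), Il1r1 (-0.14), Il1rap (-0.19) and Nlrp3 (0.09) turned sign. Left-out arrays gave ranges of -0.43 to 0.23 for Il1b, -0.10 to 0.74 for Il1r1, -0.18 to 0.53 for Il1rap, -0.18 to 0.10 for Il18 and -0.82 to 1.12 for Il33. They gave -0.75 to 0.20 for Il1a minus Il1rn, -0.72 to -0.11 for the median of the members and 0 to 34 called genes. Leaving out the second null array gave the 34, and leaving out the first wild-type array gave 1. Without both, a choice made after the data were seen, 365 genes and 1 member (Casp1) were called, Il18 was 0.03 and the median -0.46. The cause of these shifts was not tested.

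With the replicate number as a block 0 genes and 0 members were called, and 2 members had an unadjusted p under 0.05. At that p 9.99% of all genes passed, and the block changed no call. The labels do not state that the numbers pair the arrays. Deviations of same-numbered arrays from their group means correlated at -0.14, 0.18 and -0.16 across genes. With 3 arrays per group, each centred on its own mean, these values cannot decide whether arrays were paired.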

Other observations

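Several genes of the IL-1-induced list varied more between wild-type arrays than between genotypes, a set picked after the values were seen. Cxcl5, a neutrophil chemokine, read 7.31, 7.70 and 7.28 on the null arrays and 9.34, 5.88 and 5.60 on the wild-type arrays. Saa3, an acute-phase apolipoprotein, read 6.10, 6.95 and 6.78 against 8.26, 5.15 and 5.93, and Steap4, a metalloreductase, 5.56, 6.80 and 5.70 against 8.13, 4.65 and 4.89. Lcn2, an iron-sequestering protein, read 8.01, 7.71 and 8.10 against 8.32, 5.90 and 6.52. All 4 were highest on the first wild-type array, which also had the highest Il1r1 (11.60), Il1rap (9.83), Il1rn (7.95) and Il1r2 (6.57). The same array had the highest fibroblast marker mean (10.89) and the lowest Il1b (3.93). With the fibroblast mean as a covariate, added after the data were seen, the SE of the difference went from 0.87 to 0.21 for Steap4 and from 0.71 to 0.31 for Saa3. Without that array 8 induced genes had an unadjusted p under 0.05, all higher, where 12.3% of all genes passed in either direction.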
